A study of Mus musculus with 19 samples.

Results

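Otx2, Crx, Prdm1, Neurod1, Rorb, Thrb, Rxrg and Mef2d encode transcription factors that direct precursor cells of the retina to the rod or cone fate. These 8 genes were picked by symbol for their known roles, with earlier results of these data known, and all 8 are listed in each of the 3 RNA-seq tables, among 35734 genes in all. The study has 19 mouse libraries in 6 groups and compares retinal cells with more, or less, of the POU factor Pou3f1. In the gain experiment, eyes of wild-type CD1 pups were electroporated on postnatal day 1 with a Gfp control or with Pou3f1. GFP-positive cells were sorted 48 h later (3 Gfp and 3 Pou3f1 libraries) or 14 days later (4 Gfp and 5 Pou3f1 libraries), and sorted samples were pooled to 150000 cells per replicate. The protocol text words the late time as postnatal day 14, and the sample labels as 14 days. In the loss experiment, RNA came from whole embryonic retinas (C57B6J, E17.5), with 2 Pou3f1 heterozygous and 2 homozygous knockout libraries, so the controls also lack 1 copy of the gene. The labels give neither the promoter that drives the plasmids nor the kind of knockout allele. A sorted sample holds whichever retinal cells carry the plasmid, and a whole retina holds all of its cell types.

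Photoreceptors arise from dividing retinal progenitors, cones before birth in the mouse and most rods around and after birth. The homeodomain factor Otx2 starts the photoreceptor program in newly postmitotic precursors, and Crx, which it activates, turns on genes of the light-sensing machinery. Prdm1 holds Otx2-positive precursors on the photoreceptor path and away from the bipolar cell fate. Rorb acts upstream of the rod factor Nrl, Thrb and Rxrg shape cone identity, Neurod1 acts in precursors and maintains photoreceptors, and Mef2d works with Crx on late photoreceptor genes. Several of these factors also serve other cells: Otx2 bipolar cells and pigment epithelium, Rorb amacrine and horizontal cells, and Prdm1 many cells of the immune system.

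All fold changes below are log2 values that the authors computed. Those at 48 h and 14 days are shrunken toward 0, while for E17.5, where no SE is listed, this was not checked and they may be shrunken too. The tables give 1 value per gene and comparison with no value for single libraries. The words rose and fell are kept for genes whose p, adjusted in that table by the Benjamini-Hochberg (BH) method, is under 0.05. An interval is the 95% interval that the listed standard error (SE) implies on the shrunken scale. Pou3f1 itself was read first, since the headers name no direction. In the authors' deposited tables its log2 fold change was 0.91 early, 5.57 late and -0.69 in the embryo, so positive values mean higher in Pou3f1 cells, and higher in the knockout at E17.5. The early value of Pou3f1 had an interval from 0.40 to 1.42 in the authors' deposited table (BH-adjusted p = 0.0233). Averaged over Gfp and Pou3f1 libraries, its mean count was 37279 at 48 h and 16971.5 at 14 days. The summed mean counts were 16020800 at 48 h and 38507500 at 14 days, and the depth of single libraries is unknown. Of 33 rod genes, 8 are listed at 48 h and all 33 at 14 days, where they make up 104473 CPM (mean counts scaled to a total of 1000000 per table). The labels name no separate animals, so a p-value covers the spread among these samples alone, and that spread may be technical.

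Start sites for all 8 genes were found in RefSeq (build GRCm38.p6, the assembly of mm10), 14 in total, and the 250 bases before each were searched on both strands. The site TAATCC, which the homeodomains of Otx2 and Crx bind, occurred before 3 of the 14 start sites, in Crx, Otx2 and Thrb, and before 6.25% of all 32851 start sites. The POU octamer ATGCAAAT occurred before 0 of 14 (1.60% of all), the E-box CANNTG of proneural factors such as Neurod1 before 8 (66.2%) and the nuclear receptor half-site AGGTCA before 2 (14.0%). An E-box reads the same on both strands and was counted once, and the half-site of Rxrg shares bases with an E-box. A match is a description of the letters only. Sequences of 3 genes that changed together at 48 h are shown so that the region before their start sites can be compared, with bases of annotated exons left out. Capitals mark TAATCC in either orientation in Crx and E-boxes in Prdm1, and Mef2d holds neither. The first site of Crx begins 94 bases before the start site and the second 21 bases before it. The windows lie at chr7:15879969-15880205 (minus strand) for Crx, chr10:44458749-44458998 (minus strand) for Prdm1 and chr3:88142122-88142371 (plus strand) for Mef2d. The start sites used for Crx and Prdm1 lie inside the annotated genes.
Crx: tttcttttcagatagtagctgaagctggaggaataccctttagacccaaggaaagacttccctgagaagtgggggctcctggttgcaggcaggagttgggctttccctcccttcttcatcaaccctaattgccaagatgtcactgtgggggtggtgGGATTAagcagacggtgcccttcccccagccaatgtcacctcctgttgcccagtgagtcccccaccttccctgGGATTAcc
Prdm1: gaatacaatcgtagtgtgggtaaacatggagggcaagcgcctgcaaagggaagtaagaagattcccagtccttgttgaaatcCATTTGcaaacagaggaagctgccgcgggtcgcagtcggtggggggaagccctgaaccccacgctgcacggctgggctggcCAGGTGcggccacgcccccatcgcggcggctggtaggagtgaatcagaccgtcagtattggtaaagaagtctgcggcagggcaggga
Mef2d: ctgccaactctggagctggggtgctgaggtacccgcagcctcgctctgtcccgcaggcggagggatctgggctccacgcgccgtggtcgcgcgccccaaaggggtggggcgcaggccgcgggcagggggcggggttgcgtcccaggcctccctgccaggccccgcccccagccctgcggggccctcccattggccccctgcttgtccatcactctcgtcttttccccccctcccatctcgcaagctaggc

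In the GENCODE annotation of mm10, the 8 genes lie on 7 chromosomes and all are protein coding. Otx2 lies at chr14:48657677-48673819 and Thrb, which spans 378 kb, at chr14:17660261-18038090. Crx lies at chr7:15865947-15879968, Prdm1 at chr10:44437177-44528501, Neurod1 at chr2:79452521-79456751, Rorb at chr19:18930605-19111196, Rxrg at chr1:167598384-167639623 and Mef2d at chr3:88142372-88172086.

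The sorted cells held RNA of all 8 factors at both times. Levels are given as CPM per kilobase (kb) of the longest coding transcript in GENCODE's basic set, averaged over Gfp and Pou3f1 libraries by the authors. At 48 h Otx2 had the highest level per kb (368), followed by Neurod1 (225), Crx (223), Rorb (82.3), Prdm1 (59.3), Mef2d (46.1), Rxrg (6.63) and Thrb (6.11). At 14 days the order was Crx (721), Neurod1 (217), Mef2d (177), Otx2 (170), Rorb (41.2), Thrb (24.5), Prdm1 (15.5) and Rxrg (1.95) per kb. Neurod1 and Crx at 48 h, and Mef2d and Otx2 at 14 days, lie close together, and whether they differ beyond the spread of libraries cannot be read from mean counts. Between the 2 tables, which were normalized separately, the share of all mean counts was 4.01 times as large at 14 days as at 48 h for Thrb, 3.83 times for Mef2d and 3.23 times for Crx. For Neurod1 this ratio was 0.967, for Rorb 0.500, for Otx2 0.462, for Rxrg 0.294 and for Prdm1 0.261. The cone factor genes Thrb and Rxrg had the lowest listed mean counts at 48 h, 606 and 224, while the other 6 had 3993 or more.

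**Figure D1:**
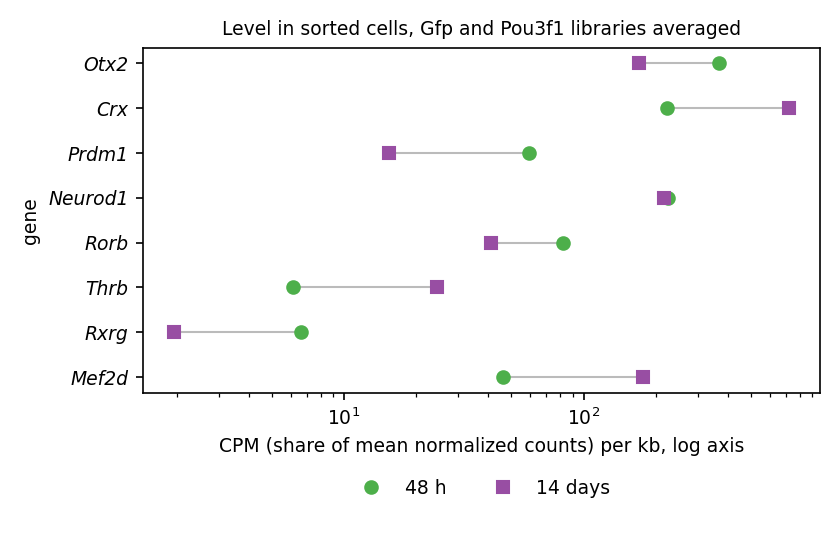
Level of each gene (rows) in sorted cells at 48 h (circles) and at 14 days (squares), as CPM per kb on a log axis, with Gfp and Pou3f1 libraries averaged and no error available. Crx is at 223 at 48 h and 721 at 14 days, while Prdm1 is at 59.3 and 15.5.

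The 48 h comparison asks how these factors stood soon after Pou3f1 was added to cells of the newborn retina. Crx, Prdm1, Neurod1, Thrb and Mef2d fell, by 1.50-fold to 1.81-fold, and none of the 8 rose (1.48% of tested genes rose). Thus 5 of 8 genes fell, where 1.56% of the 14714 genes with an adjusted p did so and 3.04% changed in either direction. At an unadjusted p under 0.05, 6 were lower and 0 higher in the authors' DESeq2 table. The median log2 fold change was -0.66 over the 8 genes and -0.01 over all genes tested. These are pools of sorted cells, in which fewer cells of a type and less RNA per cell cannot be told apart.

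Of the homeodomain pair, Crx fell by 0.74 on the log2 scale, with an SE of 0.22 and an interval from -1.17 to -0.30, in the authors' deposited table (BH-adjusted p = 0.0351). Otx2, its activator, did not pass, at -0.39 ± 0.18 (SE) in the authors' deposited table (BH-adjusted p = 0.243), and its interval from -0.74 to -0.05 holds the value of Neurod1 and, at its lower end, that of Crx. Prdm1, which keeps precursors from the bipolar path, had the smallest adjusted p of the 8, at -0.75 ± 0.17 in the authors' deposited table (BH-adjusted p = 0.00182). The fall of Neurod1, a proneural factor, was -0.59 ± 0.18 in the authors' deposited table, and its BH-adjusted p of 0.0458 lies closest to the threshold.

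The cone receptor gene Thrb had the lowest value of the 8, at -0.86 ± 0.25 in the authors' deposited table (BH-adjusted p = 0.0266). Only 0.530% of the tested genes had a lower fold change. Its partner in cone identity, Rxrg, was at 0.19 ± 0.22 in the authors' deposited table (BH-adjusted p = 0.772), with an interval from -0.24 to 0.62. Both cone factors thus had low counts, and their intervals do not overlap. Mef2d, which works with Crx on late photoreceptor genes, stood at -0.83 ± 0.21 in the authors' deposited table (BH-adjusted p = 0.00562). Rorb, upstream of Nrl, was at 0.14 ± 0.17 in the authors' deposited table (BH-adjusted p = 0.775). The upper bounds of Rorb and Rxrg were 0.47 and 0.62, and their lower bounds of -0.18 and -0.24 exclude falls as large as those of the 5 genes that fell.

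Photoreceptor genes downstream of these factors are covered only in part at 48 h. All 8 rod genes listed and all 10 cone genes listed had negative values in the authors' deposited table, with medians of -0.52 and -0.22, and 0 of them passed. At an unadjusted p under 0.05 in that DESeq2 table, 3 of the rod genes and 0 of the cone genes were lower, and 0 of either were higher. Markers of other cells had medians of -0.30 for 9 bipolar genes (1 fell), -0.28 for 12 amacrine genes (0 called, 2 lower at an unadjusted p under 0.05), -0.36 for 10 Müller glia genes (0 called, 6 lower at an unadjusted p under 0.05) and -0.37 for 8 blood vessel genes (1 fell). Not all lists were shifted down: the median was 0.11 for 6 horizontal cell genes (0 called, 1 higher at an unadjusted p under 0.05) and 0.17 for 8 pigment epithelium genes, of which the channel gene Best1 rose. Counts of the pigment epithelium list were low at 48 h, with 16.0 CPM over the 11 genes listed and a mean count of 25.6 for Best1. Of 14 ganglion cell genes, with a median of -0.27, 2 rose and 1 fell. Those that rose were the transcription factor genes Eomes, at 1.34 ± 0.24, and Ebf3, at 1.13 ± 0.24, in the authors' deposited table (BH-adjusted p = 1.35e-05 and 0.000656). The tables give no level per group for any of these lists, and their part in the falls of the fate factors was not tested.

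**Figure D2:**
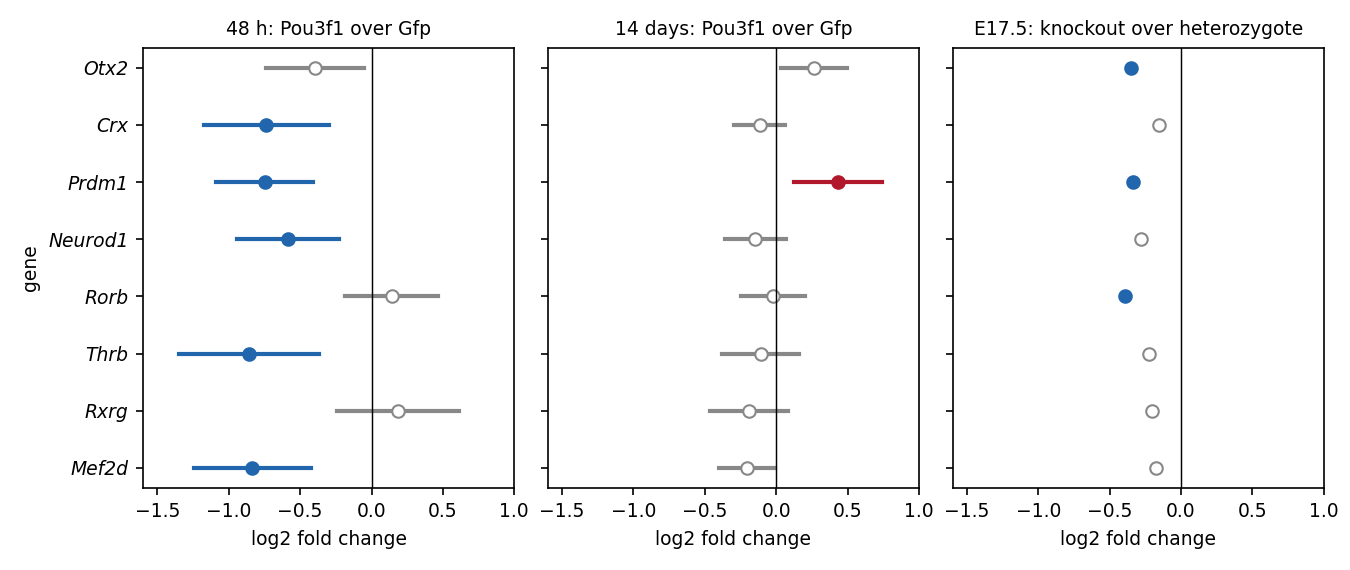
Log2 fold change of the 8 genes (rows) at 48 h, 14 days and E17.5 (panels). Points are the authors' values, horizontal lines the 95% interval from the listed SE (none is listed at E17.5), and filled points passed an adjusted p under 0.05, blue for lower and red for higher. At 48 h 5 genes fell, at 14 days Prdm1 rose, and at E17.5 all 8 points lie below 0, with 3 filled.

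The 14 day comparison asks how the same factors stood once the retina had matured. Prdm1 rose by 1.35-fold in Pou3f1 cells, and none of the other 7 genes passed. One call in 8 compares with 20.7% of 17789 tested genes called in either direction, 11.5% higher and 9.21% lower, so the share of members called does not exceed that of all genes. At an unadjusted p under 0.05, 2 were higher (Prdm1 and Otx2) and 1 lower (Mef2d) in the authors' DESeq2 table. The median log2 fold change was -0.11 over the 8 genes and -0.01 over all genes tested.

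Prdm1 was at 0.43 ± 0.16 in the authors' deposited table, with an interval from 0.12 to 0.74 (BH-adjusted p = 0.0328). Otx2 was at 0.26 ± 0.12 in the authors' deposited table (BH-adjusted p = 0.0934). Crx, the most abundant of the 8 at this time, was at -0.12 ± 0.09 in the authors' deposited table (BH-adjusted p = 0.391). Its interval from -0.30 to 0.06 excludes a fall as large as the -0.74 listed for Crx at 48 h. The intervals of Neurod1 (-0.36 to 0.07), Thrb (-0.38 to 0.16) and Mef2d (-0.40 to -0.01) likewise exclude their own 48 h values, the error of those values aside. Mef2d itself was at -0.20 ± 0.10 in the authors' deposited table (BH-adjusted p = 0.139). Rorb was at -0.02 ± 0.12 and Rxrg at -0.19 ± 0.14 in the authors' deposited table (BH-adjusted p = 0.925 and 0.347).

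Genes of the light-sensing machinery, which these factors activate, stood lower at the same time. Of 33 rod genes 31 fell and 0 rose, with a median log2 fold change of -0.53. Of 14 cone genes 12 fell and 0 rose, with a median of -0.64. In the authors' deposited table the rod synapse gene Cabp4 was at -0.71 ± 0.16 (BH-adjusted p = 0.000242) and the cone transducin gene Gnat2 at -0.81 ± 0.22 (BH-adjusted p = 0.00254). Nrl, the rod fate factor downstream of Rorb, was at -0.26 ± 0.11, and Nr2e3, which Nrl activates, at 0.27 ± 0.11, and neither passed in the authors' deposited table (BH-adjusted p = 0.0889 and 0.0747). Nrl and Nr2e3 were singled out after their values were seen. Given the SE, the smallest change that could have been called on the log2 scale ranged over the 8 factors from 0.23 for Crx to 0.40 for Prdm1. Whether the factors and their targets differ in response was not tested, since they share libraries and no value for single libraries is given.

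Markers of cells outside the photoreceptor path were also called at 14 days. Of all tested genes, 11.5% rose, 9.21% fell and 20.7% were called in either direction. All 10 microglia markers rose, with a median log2 fold change of 1.67, and their summed mean count was 2511. Immune cells also use Prdm1, whose mean count was 3147, and these counts do not show how much of its RNA came from microglia. In the authors' deposited table the microglial complement gene C1qc was at 1.87 ± 0.24 (BH-adjusted p = 1.00e-12). At 48 h the same 10 genes summed to 121, and 0 of the 6 with an adjusted p passed, with 0 at an unadjusted p under 0.05. Scaled to CPM, the sums of these 10 genes were 7.54 at 48 h and 65.2 at 14 days. Of 12 Müller glia markers 6 fell and 0 rose, with a median of -0.40 beside the falls of rod and cone genes, and in the authors' deposited table the water channel gene Aqp4 was at -1.11 ± 0.19 (BH-adjusted p = 3.55e-07). Of 12 amacrine markers 3 rose and 0 fell, with a median of 0.24. Of 14 ganglion cell markers 3 rose and 1 fell, with a median of -0.13, and the 3 were Pou4f2 (3.64 ± 0.26), Eomes (3.07 ± 0.26) and Ebf3 (2.68 ± 0.24) in the authors' deposited table (BH-adjusted p from 7.86e-40 to 5.83e-26). Of 8 blood vessel markers 2 fell, with a median of -0.59, and 0 of 7 horizontal cell markers were called (1 higher at an unadjusted p under 0.05). The shares of amacrine, ganglion cell and blood vessel markers called in either direction lie near the 20.7% of all tested genes. Bipolar markers went both ways at 14 days, with 3 of 16 higher, 3 lower and a median of -0.05. The part of these cells in the values of the 8 factors and of the rod and cone genes was not tested.

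**Figure D3:**
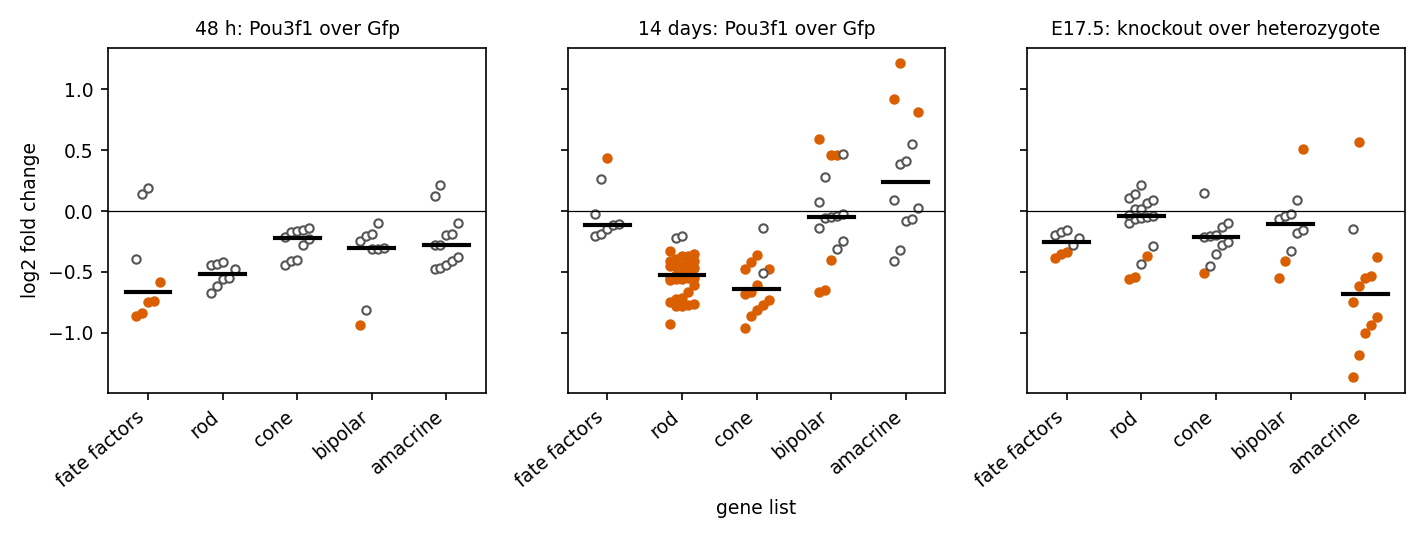
Log2 fold change (vertical axis) of the 8 fate factors and of rod, cone, bipolar and amacrine genes in each comparison (panels). Each point is a gene with an adjusted p, filled where it is under 0.05, and black bars are medians. At 14 days the rod and cone medians are -0.53 and -0.64 beside -0.11 for the fate factors, and at E17.5 the amacrine median is -0.68.

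The early and late tables share no library, so the difference between their fold changes was tested for each gene by a two-sided z test that uses both SE, adjusted over 14580 genes. The effect on Prdm1 and on Otx2 moved up between 48 h and 14 days, 2 of 8 genes, where 4.48% of tested genes moved up, 1.66% down and 6.14% in either direction. For Prdm1 the difference was 1.18 ± 0.23 (SE) on the log2 scale (z test, adjusted p = 5.87e-05). It took the gene from a fall at 48 h to a rise at 14 days. For Otx2 it was 0.66 ± 0.21 (z test, adjusted p = 0.0359), although neither time alone passed for this gene. Crx (0.62 ± 0.24), Thrb (0.75 ± 0.29), Mef2d (0.63 ± 0.23) and Neurod1 (0.44 ± 0.21) had differences of the same sign that did not pass (z test, adjusted p from 0.0798 to 0.225). Their 95% intervals nevertheless lie above 0. Rorb (-0.16 ± 0.20) and Rxrg (-0.38 ± 0.26) had differences of the opposite sign and intervals that include 0 (BH-adjusted p = 0.728 and 0.445). The median difference was 0.63 over the 8 genes and 0.03 over all genes tested. Each table was shrunken separately, and Pou3f1 itself differed by 4.67 ± 0.38 between the tables, so the contrasts at the 2 times do not match in the size of the Pou3f1 change.

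**Figure D4:**
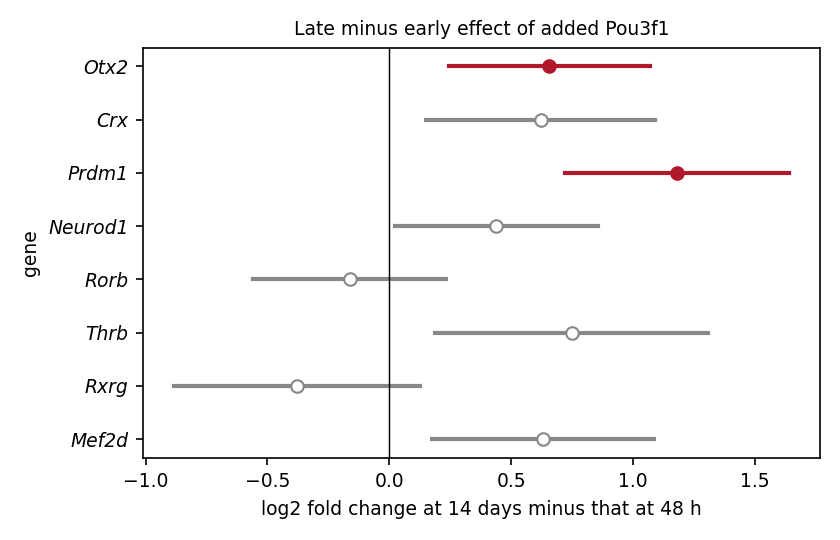
Difference between the log2 fold changes at 14 days and at 48 h for each gene (rows), with lines for the 95% interval and filled red points where the z test's adjusted p is under 0.05. Prdm1 (1.18) and Otx2 (0.66) are filled, and Rorb and Rxrg are the 2 points below 0.

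The E17.5 comparison asks how the factors stood in embryonic retinas of the libraries labelled knockout. These still held Pou3f1 RNA, at 0.620 of the heterozygote level in the authors' deposited table, a ratio that may be shrunken. The labels do not say which part of the gene is deleted. Otx2, Prdm1 and Rorb fell in the libraries labelled knockout, by 1.26-fold to 1.31-fold, and all 8 genes had negative values, from -0.39 to -0.16. The 3 of 8 that fell compare with 5.34% of 14821 tested genes that fell, 4.7% that rose and 10% called in either direction. Negative values were listed for 49.2% of tested genes. At an unadjusted p under 0.05, 5 were lower and 0 higher in the authors' table, and the median was -0.25 over the 8 genes and 0.00 over all tested. The table lists no SE and no abundance, no interval was worked out, and each group has 2 libraries.

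Rorb had the lowest value, at -0.39 in the authors' deposited table (BH-adjusted p = 0.0103). Otx2 followed at -0.35 and Prdm1 at -0.34 in the authors' deposited table (BH-adjusted p = 0.00335 and 0.00546). Neurod1 (-0.28), Thrb (-0.22), Rxrg (-0.20), Mef2d (-0.17) and Crx (-0.16) did not pass in the authors' deposited table (BH-adjusted p from 0.0753 to 0.283). Rorb and Otx2 thus changed where the 48 h overexpression had given no call, and Crx, Thrb, Neurod1 and Mef2d changed at 48 h and did not pass here. With no SE listed at E17.5, these differences between experiments were not tested. For comparison, 0.722% of tested genes had a lower value than Pou3f1 in the same table.

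Amacrine cell markers fell along with these factors at E17.5. Of 12 tested, 10 fell and 1 rose, with a median of -0.68, and the smallest adjusted p were those of the amacrine transcription factor genes Tfap2a (-1.18) and Tfap2b (-1.01) in the authors' deposited table (BH-adjusted p = 3.03e-33 and 4.11e-29). A lower value was listed for Gad1, which encodes an enzyme of GABA synthesis, at -1.36 in the authors' deposited table (BH-adjusted p = 8.76e-13). Rorb, which amacrine and horizontal cells also use, fell in the same retinas. Of 6 horizontal cell markers 2 fell, among them Onecut1, a factor of horizontal and cone precursors, at -0.36 in the authors' deposited table (BH-adjusted p = 0.000582). Of 8 pigment epithelium markers, a tissue that uses Otx2, 1 fell and the median was -0.25. Bipolar markers had 2 of 10 lower and 1 higher. Calls were also listed for 9 blood vessel markers (3 fell), 11 Müller glia markers (3 fell, 1 rose) and 14 ganglion cell markers (2 fell, 2 rose). Of 10 microglia markers 0 were called, with 2 lower at an unadjusted p under 0.05 in the authors' table. Over all tested genes, 5.34% fell and 4.7% rose. The part of these cells in the falls of Rorb and Otx2 was not tested. Of 18 rod genes 3 fell, including Rbp3, an early Crx target gene of the photoreceptor matrix, at -0.56 in the authors' deposited table (BH-adjusted p = 1.48e-05). Of 11 cone genes 1 fell, the transducin gene Gnb3, at -0.51 in the authors' deposited table (BH-adjusted p = 0.00275).

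Relatives of the 8 factors add a view of which family members moved. The list of 18 paralogs had 1 lower and 0 higher of 17 tested at 48 h, 4 higher and 2 lower of 18 at 14 days, and 2 lower and 0 higher of 15 at E17.5. Over all tested genes, 1.48% rose and 1.56% fell at 48 h, 11.5% and 9.21% at 14 days, and 4.7% and 5.34% at E17.5. The medians of the paralogs were -0.19, 0.05 and -0.18. Rora, the paralog of Rorb, was the gene that fell at 48 h, at -0.88 ± 0.22, and it also fell at 14 days, at -0.44 ± 0.14, in the authors' deposited tables (BH-adjusted p = 0.00662 and 0.00972). At both times Rorb itself stayed without a call. Thra, the paralog of Thrb, rose at 14 days by 0.51 ± 0.12 and fell at E17.5, at -0.35, in the authors' deposited tables (BH-adjusted p = 0.000267 and 0.000256). Its effect moved up by 0.77 ± 0.20 from 48 h to 14 days (z test, adjusted p = 0.00697), as those of Prdm1 and Otx2 did. Mef2c, a relative of Mef2d, fell at 14 days, at -0.87 ± 0.30 in the authors' deposited table (BH-adjusted p = 0.0217). The proneural gene Neurod6 rose by 0.75 ± 0.27 in the same table (BH-adjusted p = 0.0277). The mean count of Neurod6 at 14 days was only 5.99, below the minimum count used as an alternative setting. At E17.5 the amacrine factor gene Prdm13 fell, at -0.57 in the authors' deposited table (BH-adjusted p = 0.00014).

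A further list held 22 other regulators of photoreceptor fate and maturation. At 48 h 1 of 21 tested rose and 0 fell (1.48% and 1.56% of all tested genes). The gene was Nr2f1, a nuclear receptor of cone patterning, at 0.69 ± 0.16 in the authors' deposited table (BH-adjusted p = 0.00182). At 14 days 4 of 22 rose and 3 fell, where 11.5% of all tested genes rose and 9.21% fell. The precursor genes Insm1 (0.79 ± 0.18) and Olig2 (1.299 ± 0.29) rose in the authors' deposited table (BH-adjusted p = 0.000191 and 0.000222). The clock gene Nr1d1 (-0.53 ± 0.16) fell in the same table (BH-adjusted p = 0.00873). The mean count of Olig2 at 14 days was only 8.67, below the minimum count used as an alternative setting. At E17.5 7 of 19 fell and 0 rose (5.34% and 4.7% of all tested genes), with a median of -0.18. Sall3, which acts in cones and horizontal cells, was at -0.88, Olig2 at -0.48 and Insm1 at -0.40 in the authors' deposited table (BH-adjusted p from 7.29e-07 to 0.00275).

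Partners of Thrb and Rxrg, that is, genes of thyroid hormone and retinoid handling, had calls in both directions. Of 16 tested at 48 h, 2 rose and 1 fell (1.48% and 1.56% of all tested genes). The retinoic acid receptor gene Rarb was at 0.89 ± 0.21, the thyroid hormone binding protein gene Crym at 0.57 ± 0.17 and the nuclear receptor co-activator gene Ncoa1 at -0.66 ± 0.16 in the authors' deposited table (BH-adjusted p from 0.00184 to 0.0270). Of 17 at 14 days, 2 rose and 1 fell (11.5% and 9.21% of all tested genes). With 20.7% of all tested genes called, the share called in this list does not exceed that of all genes. The retinoic acid synthesis gene Aldh1a2 was at 2.22 ± 0.30, and Dio2, which encodes the enzyme that activates thyroid hormone, at -0.71 ± 0.18 in the authors' deposited table (BH-adjusted p = 1.37e-11 and 0.00101). Of 15 at E17.5, 2 rose and 3 fell (4.7% and 5.34% of all tested genes). Crym had the lowest value of the list, at -1.02 in the authors' deposited table (BH-adjusted p = 1.54e-13).

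Prdm1 was the only one of the 8 factors called in all 3 comparisons, lower at 48 h, higher at 14 days and lower in the knockout. Rxrg was called in none, and each of the other 6 in 1. The genes nearest to each factor over the 3 log2 fold changes were found by Euclidean distance among 13245 genes, a likeness over 3 values that many genes can share. Nearest to Prdm1 were Ttyh2 (distance 0.0616), Isl2 (0.129) and Tmem132d (0.139), of which Isl2 encodes a LIM-homeodomain factor of ganglion cells. Nearest to Otx2 were Sez6l2 (0.0554), Rims4 and Ttc28, and nearest to Crx were Bmp7 (0.0434), Dnajc6 and Prr14l. Neurod1 lay nearest to Llgl2 (0.0120), Slc1a7 and Pcdhga1, and Rorb to Gmpr (0.0359), Lrba and Cd274. Thrb had Rin2 (0.0909), Stom and Prr14l, Rxrg had Ptpdc1 (0.0334), Smarca2 and Vmn2r1, and Mef2d had Frg2f1 (0.0515), St6galnac5 and Cdkl2.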

How the data were processed

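The 3 tables each hold 1 comparison made by the authors, with no values per library. Salmon, DESeq2 and MACS2 with mm10 are named in the submitters' processing notes, and the sources used here give no version, annotation or design formula. The deposited log2 fold changes and SE at 48 h and 14 days are shrunken, as small SE at low counts show (median 0.0843 below a mean count of 1 at 48 h, 0.200 between 100 and 1000). The deposited signal is the authors' mean normalized count. The deposited score is the Wald statistic, the log2 fold change over its SE (largest gap 4.45e-07 when recomputed). The deposited p-values were adjusted by the authors by Benjamini-Hochberg (largest gap 5.60e-06). Calls are an adjusted p of theirs under 0.05. The E17.5 table's file name states another day and puts the heterozygote first, so age came from the labels and direction from Pou3f1. The difference between 14 days and 48 h was computed with Python 3.11.15, pandas 2.3.3, numpy 2.4.6 and scipy 1.17.1. Figures used matplotlib 3.10.9.

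Genes named are the 8 factors, Pou3f1, up to 4 called genes of each of 14 lists by adjusted p, and the 3 nearest genes of each factor, and some genes that this rule names are not reported here. Members and lists were chosen with earlier results of these data known. Alternatives were stricter thresholds, adjustment over all genes, a mean count of at least 10 and centred fold changes.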

Additional observations from a re-analysis of the deposited data

Results flagged for a closer look

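The effect of added Pou3f1 on 2 of the 8 factors differed between 14 days and 48 h by the z test on the difference. The log2 difference was 1.18 for Prdm1 (z test, adjusted p = 5.87e-05), which passed in opposite directions at the 2 times, and 0.66 for Otx2 (z test, adjusted p = 0.0359). The authors' means do not show how many libraries share these directions.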

How the results depend on the processing

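No paired analysis was possible because the tables hold no values per library, and for the same reason no replicate could be left out, so neither of these was run. Of the factors called, 5 at 48 h, 1 at 14 days, 3 at E17.5 and 2 for the difference, the following remained. At an adjusted p under 0.01, 2 remained at 48 h (Prdm1 and Mef2d), 0 at 14 days, 2 at E17.5 (Otx2 and Prdm1) and 1 for the difference (Prdm1). With a change of at least 2-fold also required, 0 remained in each of the 48 h, 14 day and E17.5 comparisons. Adjusted over all genes with a p-value, 3 remained at 48 h, while Crx (adjusted p = 0.0532) and Neurod1 (0.0693) were lost, and the calls at 14 days, at E17.5 and for the difference were kept. With a mean count of at least 10 the 48 h, 14 day and difference calls were kept. With fold changes centred on their median, chosen for the single tables after seeing the data, the same calls were kept, with Neurod1 at 48 h at an adjusted p of 0.0498. The range of adjusted p for Prdm1 at 14 days over these alternatives was 0.0265 to 0.0434. The tables limit what the SE can resolve: at 48 h the smallest callable log2 change was 0.79 for Thrb and 0.69 for Rxrg.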

Other observations

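The combination of calls seen for Prdm1, lower at 48 h, higher at 14 days and lower in the knockout, was shared by 9 of the 14002 genes with an adjusted p in all 3 tables, Prdm1 included. The other 8, named after their values were seen, were Arhgap31, Cacng3, Enc1, Nxph4, Pde3a, Tbc1d9, Trib1 and Ttyh2. None of them is in the gene lists used here. At 48 h 1 of 15 progenitor markers fell and 0 rose (1.56% and 1.48% of all tested genes), with a median log2 fold change of -0.15. At an unadjusted p under 0.05 in the authors' DESeq2 table, 4 were lower and 1 higher at 48 h. At 14 days 6 of 15 progenitor markers rose and 0 fell (11.5% and 9.21% of all tested genes), with a median of 0.44. Of these, the forebrain and eye factor gene Six3 was at 0.69 ± 0.14 and the cyclin gene Ccnd1 at 0.76 ± 0.21 in the authors' deposited table (BH-adjusted p = 4.32e-05 and 0.00431).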
